A study of Mus musculus with 12 samples.

Results

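The 28 genes described here encode the enzymes that make cholesterol and the proteins that sense, move and export sterols. They were taken by name from a fixed list, chosen with earlier results of these data known. All 28 were found among the 49997 genes counted in each library. Expression was measured by poly(A) RNA-seq in sorted mouse thymocytes of 2 stages, with 3 libraries in each of 4 groups. CD4 KO and CD4 WT are the libraries labelled as CD4 thymocytes, from Satb1 KO and WT mice. In normal maturation this stage follows selection for the CD4 lineage. DP KO and DP WT are double-positive thymocytes, the earlier stage that carries both the CD4 and CD8 co-receptors, from the same genotypes. All 4 groups carried the tamoxifen label, WT included; tamoxifen is the drug that switches on an inducible Cre recombinase. The labels leave out the Cre driver, the Satb1 allele, the age and number of the mice, the length of treatment and the sort gates. Nothing in the labels says that the libraries came from separate animals, so each p-value stands for the spread among libraries, which may be technical.

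Depth ran between 22790504 and 62422640 counts per library, so that 3 counts were worth 0.0465 to 0.134 CPM, the unit of counts scaled to library size and composition. Satb1 itself stood at 1469.7 to 1545 CPM in CD4 KO, against 3001 to 3513 CPM in CD4 WT. It stood at 2455 to 2874 CPM in DP KO, against 3831 to 3885 CPM in DP WT, so transcripts were lower but not lost. Whether reads fall in a deleted part of the gene cannot be checked, since the allele is not given. Cd8a, a co-receptor gene that DP cells express and CD4 cells lose, was at 153 to 168 CPM in CD4 KO and 62.4 to 152 CPM in CD4 WT, against 1652 to 1693 CPM in DP KO and 2252 to 2724 CPM in DP WT. Zbtb7b, the factor that commits cells to the CD4 lineage, was at 20.0 to 41.5 CPM in CD4 KO and 355 to 413 CPM in CD4 WT. Whether the cells of CD4 KO and CD4 WT were at the same stage was not tested. The X-linked transcript Xist set a pair of DP WT libraries apart, at 0.844 and 0.273 CPM in DP WT replicates 1 and 2, against 475 CPM in DP WT replicate 3 and 189.6 to 601 CPM in the other 9 libraries, while the Y-linked Ddx3y was read in all 12 (40.3 to 127 CPM). Results that rest on the DP WT libraries are therefore also given with replicate 3 as the lone DP WT library, whose spread is then assumed to be that of the other groups.

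Cholesterol is built from acetyl-CoA through mevalonate, farnesyl diphosphate, squalene and lanosterol. Its output is set by SREBP transcription factors, which SCAP escorts out of the endoplasmic reticulum when sterols are low and which INSIG proteins hold back when sterols are high. Sterol excess instead acts through the liver X receptors (LXR), which switch on the exporters ABCA1 and ABCG1. In T cells, sterol synthesis is known to go up with proliferation and activation.

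Nr1h2, which encodes LXR beta, led the list in all 4 groups, with means of 55.7 CPM per kilobase of exon in CD4 KO, 57.9 in CD4 WT, 59.4 in DP KO and 62.0 in DP WT. Srebf2, which encodes the SREBP that drives cholesterol enzymes, came next in CD4 KO (47.2 ± 2.58 CPM per kilobase, SD, n = 3), DP KO (53.8 ± 5.03) and DP WT (59.5 ± 6.60). In DP KO and in DP WT the levels of Nr1h2 and Srebf2 did not differ beyond their spread. In CD4 WT the exporter gene Abcg1 (44.9 ± 5.72 CPM per kilobase) stood between Nr1h2 and Srebf2 (35.9 ± 1.07). Fdps, farnesyl diphosphate synthase, was the most abundant of the 18 enzymes per length in all 4 groups, at 31.0, 22.9, 34.3 and 31.4 CPM per kilobase in CD4 KO, CD4 WT, DP KO and DP WT. At the other end, Nr1h3, which encodes LXR alpha, was at 0.513, 0.497, 0.336 and 0.439 CPM per kilobase in the same order, the lowest of the 28 in every group. Hsd17b7, a sterol ketone reductase, was the enzyme with the lowest level per length in every group. The length is that of all annotated exons, such as 5585 bases for Hsd17b7 and 10331 for Fdft1. Ranks between genes therefore depend on the annotation, and exons that these cells may not use lower the level.

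**Figure D1:**
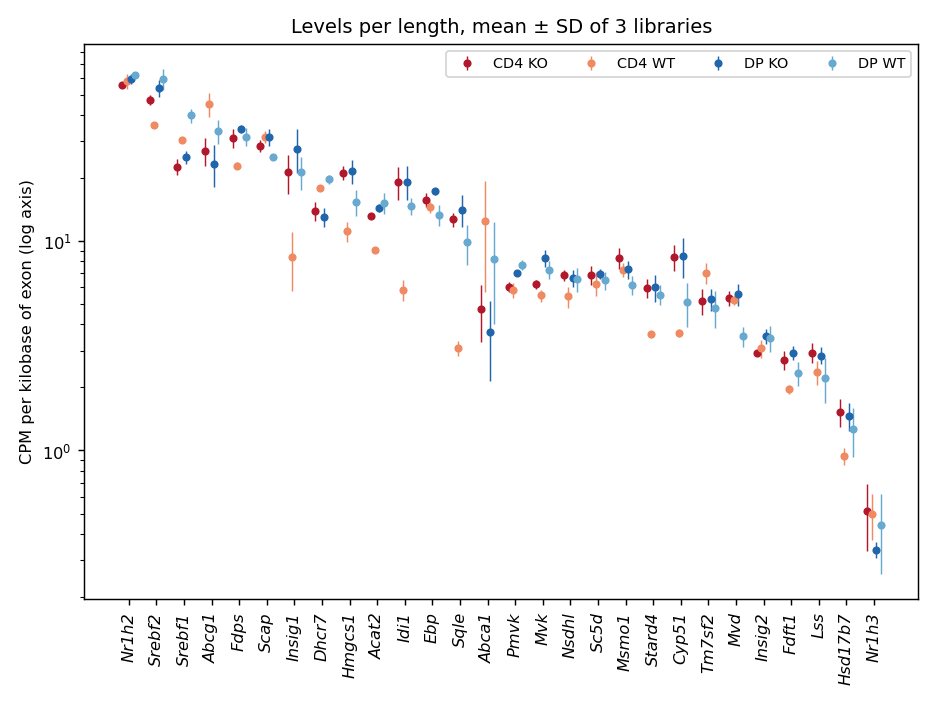
Level of each of the 28 genes per kilobase of exon (CPM per kilobase, log axis) in CD4 KO, CD4 WT, DP KO and DP WT; points are means and bars SD of 3 libraries, and genes run from the highest to the lowest DP WT mean. Nr1h2 is at the top in all 4 groups and Nr1h3 at the bottom.

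Sequences upstream of the members are shown because the sterol response is known to act there, through the sterol regulatory element that SREBP binds and a neighbouring NF-Y box. The windows below run from 250 bases before to 50 bases after the annotated start, from RefSeq on GRCm38.p6, which has the coordinates of the files' mm10 build. Each is written in the gene's own direction. Capitals mark the letters TCACNCCA (the core of the sterol element, with N for any base) and CCAAT, the NF-Y box, on either strand, so that ATTGG is the box on the opposite strand. In Hmgcs1 the capitals run 1 base further, over the longer form TCACNCCAC. They are from the enzyme genes Hmgcs1 (chr13:119690101-119690400, plus strand), Idi1 (chr13:8885356-8885655, plus strand) and Cyp51 (chr5:4104648-4104947, minus strand), from the regulators Srebf2 (chr15:82147019-82147318, plus strand) and Insig1 (chr5:28071162-28071461, plus strand), and from the exporter gene Abca1 (chr4:53159846-53160145, minus strand).
Hmgcs1: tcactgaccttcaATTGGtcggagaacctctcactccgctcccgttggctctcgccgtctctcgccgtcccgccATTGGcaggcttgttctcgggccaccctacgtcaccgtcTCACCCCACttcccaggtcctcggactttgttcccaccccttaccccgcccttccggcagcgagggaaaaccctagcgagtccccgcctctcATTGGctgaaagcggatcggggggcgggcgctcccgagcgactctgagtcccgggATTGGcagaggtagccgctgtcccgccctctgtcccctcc
Idi1: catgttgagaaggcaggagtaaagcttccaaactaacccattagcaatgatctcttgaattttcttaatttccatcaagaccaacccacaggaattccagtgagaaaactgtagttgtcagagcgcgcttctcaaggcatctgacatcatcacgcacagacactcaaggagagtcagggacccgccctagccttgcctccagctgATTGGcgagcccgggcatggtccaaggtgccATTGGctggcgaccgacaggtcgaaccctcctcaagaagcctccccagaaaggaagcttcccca
Cyp51: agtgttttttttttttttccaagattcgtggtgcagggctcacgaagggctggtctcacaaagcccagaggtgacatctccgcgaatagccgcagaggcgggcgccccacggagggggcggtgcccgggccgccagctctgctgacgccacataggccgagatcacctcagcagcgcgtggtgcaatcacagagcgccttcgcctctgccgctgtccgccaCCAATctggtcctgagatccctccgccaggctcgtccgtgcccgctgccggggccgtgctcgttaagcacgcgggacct
Srebf2: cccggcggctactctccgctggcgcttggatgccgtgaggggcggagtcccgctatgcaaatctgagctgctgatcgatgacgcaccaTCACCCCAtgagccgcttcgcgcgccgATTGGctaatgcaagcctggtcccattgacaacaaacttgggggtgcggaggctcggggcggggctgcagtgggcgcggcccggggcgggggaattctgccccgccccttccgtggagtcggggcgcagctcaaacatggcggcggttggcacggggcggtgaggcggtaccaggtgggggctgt
Insig1: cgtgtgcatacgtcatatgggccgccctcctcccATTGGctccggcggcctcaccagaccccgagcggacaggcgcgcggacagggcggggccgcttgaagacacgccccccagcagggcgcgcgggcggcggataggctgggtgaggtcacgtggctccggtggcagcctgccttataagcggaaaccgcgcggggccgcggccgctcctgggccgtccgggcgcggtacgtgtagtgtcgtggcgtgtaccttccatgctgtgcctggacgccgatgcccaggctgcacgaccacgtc
Abca1: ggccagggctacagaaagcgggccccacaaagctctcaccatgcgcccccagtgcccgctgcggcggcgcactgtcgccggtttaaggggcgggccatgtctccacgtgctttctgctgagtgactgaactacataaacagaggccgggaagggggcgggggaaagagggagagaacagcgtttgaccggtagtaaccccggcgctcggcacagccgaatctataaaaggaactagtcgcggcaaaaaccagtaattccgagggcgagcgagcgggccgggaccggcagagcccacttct

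Hmgcs1 held the sterol element letters 137 bases before its start and Srebf2 162 bases before, and the Abca1 window held neither capitalised motif. Windows were used for 23 of the 28 members, 32 windows in all, and not for Fdps, Fdft1, Sqle, Stard4 and Abcg1. Member windows on chromosome 18, where Stard4 lies, were left out of the search, a limit not set on the windows of all genes. TCACNCCA was in 3 of the 32 windows (9.38%), those of Hmgcs1, Msmo1 and Srebf2, against 4.36% of all 32851 promoter windows; it was searched after the longer forms TCACNCCAC (1 window, 3.13%, against 1.24%) and the full classical sterol element (0 windows, against 0.0913%) had given few matches, and it lies within the longer forms. CCAAT was in 19 windows of 18 members (59.4%), against 37.4% of all windows. The GC box GGGCGG was in 24 windows of 20 members (75.0% of windows), against 35.7%. The E-box CACGTG was in 7 windows of 6 members (21.9% of windows), against 7.15%. Some members have several windows, which can overlap, and the overlapping Scap windows hold the same E-box. The direct repeat of the LXR type was searched in an exact form only, with identical repeats and 4 bases between them. This exact form was in 0 windows, against 0.0457% of all windows. Forms whose repeats differ in any letter were not searched. The result therefore does not show that the windows, that of Abca1 included, lack a repeat of the LXR type. All motifs were searched on both strands, and a match describes letters in the window only.

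In CD4 thymocytes, 9 of the 18 enzymes rose in KO, 2 fell and 7 were not called, and both exporter genes fell. Of all 28 members, 12 rose and 5 fell in CD4 KO against CD4 WT, at an edgeR adjusted p under 0.05 over all 17316 genes tested. That is 42.9% higher and 17.9% lower, where 39.5% of all genes tested were called, 20.9% higher and 18.6% lower. The share of members that fell is near the background and the share that rose is above it. Because the members were chosen with earlier results of these data known, these shares describe the list and do not test it. The median log2 fold change was 0.19 over the members and 0.00 over all genes tested. The 3 largest increases were in Sqle, Idi1 and Insig1, and the largest decrease was in Abca1.

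Among the 7 enzymes from acetyl-CoA to farnesyl diphosphate, 4 rose and 0 fell in CD4 KO. Idi1, the isomerase that makes the second isoprenoid building block, was at 65.0, 45.4 and 54.0 CPM in CD4 KO, against 16.2, 15.3 and 19.0 CPM in CD4 WT. Every KO library was above every WT library, and the level rose 3.27-fold (log2 fold change 1.71 ± 0.14 SE, adjusted p = 1.7e-05). Hmgcs1, the synthase that makes HMG-CoA, was at 82.3, 71.0 and 80.8 CPM in CD4 KO, against 36.4, 41.0 and 45.1 CPM in CD4 WT, a 1.91-fold rise (log2 0.94 ± 0.09 SE, adjusted p = 5.6e-05). Again the groups did not overlap.

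Acat2, the thiolase of the opening step, rose with a log2 fold change of 0.54 ± 0.08 SE (adjusted p = 0.00062), and Fdps with 0.44 ± 0.09 SE (adjusted p = 0.0033). The 3 enzymes in between, mevalonate kinase (Mvk), phosphomevalonate kinase (Pmvk) and the decarboxylase Mvd, were not called, with log2 fold changes of 0.18, 0.05 and 0.04. The exons of Acat2 overlap those of Gm20591 on the opposite strand and the exons of Mvd those of Gm51557, over 30.5% and 34.4% of their lengths. Because the strand setting of the counting is not given here, reads of these genes and their partners cannot be told apart with certainty.

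Of the 3 enzymes that turn farnesyl diphosphate into lanosterol, 2 rose and 0 fell in CD4 KO. Sqle, squalene epoxidase, a rate-limiting step of the pathway, was at 37.5, 32.0 and 35.0 CPM in CD4 KO, against 7.70, 8.57 and 9.12 CPM in CD4 WT. The lowest KO library was far above the highest WT library, and the 4.13-fold rise was the largest among the members (log2 2.05 ± 0.11 SE, adjusted p = 1.8e-06). Fdft1, squalene synthase, rose with log2 0.47 ± 0.10 SE (adjusted p = 0.0050), and 7.49% of its exons lie opposite the abundant gene Ctsb, which makes its counts uncertain in the same way. Lss, lanosterol synthase, had a log2 fold change of 0.31 and was not called (adjusted p = 0.080); with the replicate number as a block its adjusted p was 0.019.

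Of the 8 enzymes that turn lanosterol into cholesterol, 3 rose and 2 fell in CD4 KO. Cyp51, lanosterol demethylase, was at 39.6, 30.6 and 39.6 CPM in CD4 KO, against 15.1, 16.1 and 16.3 CPM in CD4 WT, with no overlap and a 2.31-fold rise (log2 1.21 ± 0.11 SE, adjusted p = 4.0e-05). Hsd17b7 rose with log2 0.70 ± 0.16 SE (adjusted p = 0.0060). The sterol dehydrogenase Nsdhl rose with log2 0.33 ± 0.12 SE (adjusted p = 0.047), a call that was lost on leaving out CD4 KO replicate 1 or 2 or CD4 WT replicate 2 or 3. Dhcr7, the reductase of the closing step, was at 49.8, 52.6 and 42.8 CPM in CD4 KO, against 62.9, 61.4 and 63.0 CPM in CD4 WT, and fell with log2 -0.37 ± 0.08 SE (adjusted p = 0.0065). The sterol reductase Tm7sf2 fell with log2 -0.46 ± 0.15 SE (adjusted p = 0.034) and was not called without CD4 KO replicate 2 or 3 or CD4 WT replicate 1 or 2. The oxidase Msmo1, the isomerase Ebp and the desaturase Sc5d had log2 fold changes of 0.20, 0.12 and 0.14 and were not called.

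The regulators split in direction in CD4 KO. Insig1, the retention protein whose gene is itself an SREBP target, was at 48.6, 50.5 and 70.0 CPM in CD4 KO, against 22.4, 15.2 and 29.3 CPM in CD4 WT, a 2.54-fold rise without overlap (log2 1.35 ± 0.22 SE, adjusted p = 0.0012). Srebf2 was at 273, 249 and 275 CPM in CD4 KO, against 205, 205 and 195 CPM in CD4 WT, and rose by log2 0.40 ± 0.07 SE (adjusted p = 0.0012). Srebf1, whose SREBP is known chiefly for fatty acid synthesis genes and is an LXR target, was at 138, 157 and 132 CPM in CD4 KO, against 188, 186 and 195 CPM in CD4 WT. It fell by 0.41 ± 0.08 SE on the log2 scale (adjusted p = 0.0020), and none of these regulators overlapped between the groups.

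Insig2, the second INSIG gene, was at 20.6, 19.7 and 21.1 CPM in CD4 KO, against 19.4, 21.5 and 23.8 CPM in CD4 WT. The groups overlapped, and Insig2 was not called (log2 -0.07 ± 0.10 SE). Scap, at 129 to 145 CPM in CD4 KO and 139 to 158 CPM in CD4 WT, was not called either (log2 -0.13 ± 0.07 SE).

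Among the transport genes, Stard4, which encodes a cytosolic sterol carrier, was at 32.9, 28.8 and 35.2 CPM in CD4 KO, against 18.7, 20.0 and 19.8 CPM in CD4 WT. It rose 1.66-fold without overlap (log2 0.73 ± 0.10 SE, adjusted p = 3.0e-04). Abca1 was at 37.9, 66.7 and 44.7 CPM in CD4 KO, against 87.2, 93.5 and 214 CPM in CD4 WT, so that the WT group was spread by its replicate 3. It fell to a mean of 49.8 ± 15.1 CPM in CD4 KO, against 132 ± 71.7 CPM in CD4 WT (SD, n = 3 each; log2 -1.40 ± 0.34 SE, adjusted p = 0.0095). Without CD4 WT replicate 3 the log2 fold change was -0.86 (adjusted p = 0.0082). Abcg1 was at 139, 183 and 147 CPM in CD4 KO, against 246, 239 and 300 CPM in CD4 WT, and fell by 0.74 ± 0.12 SE on the log2 scale (adjusted p = 0.0011).

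The receptor genes that drive Abca1 and Abcg1 did not pass the test. Nr1h2 had a log2 fold change of -0.05 ± 0.07 SE. Nr1h3 was at 1.54, 1.04 and 0.764 CPM in CD4 KO, against 1.17, 1.29 and 0.771 CPM in CD4 WT, with a log2 fold change of 0.03 ± 0.34 SE. The 12 myeloid genes, markers of cells known to hold much Abca1, summed to 19.3 to 60.1 CPM in CD4 KO and 22.1 to 57.3 CPM in CD4 WT, with 0 of the 11 tested called. In CD4 WT the sums were 46.2, 57.3 and 22.1 CPM, and Cd14 was at 0 in replicate 3 of CD4 KO and of CD4 WT. The part of myeloid content in the Abca1 values was not tested.

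**Figure D2:**
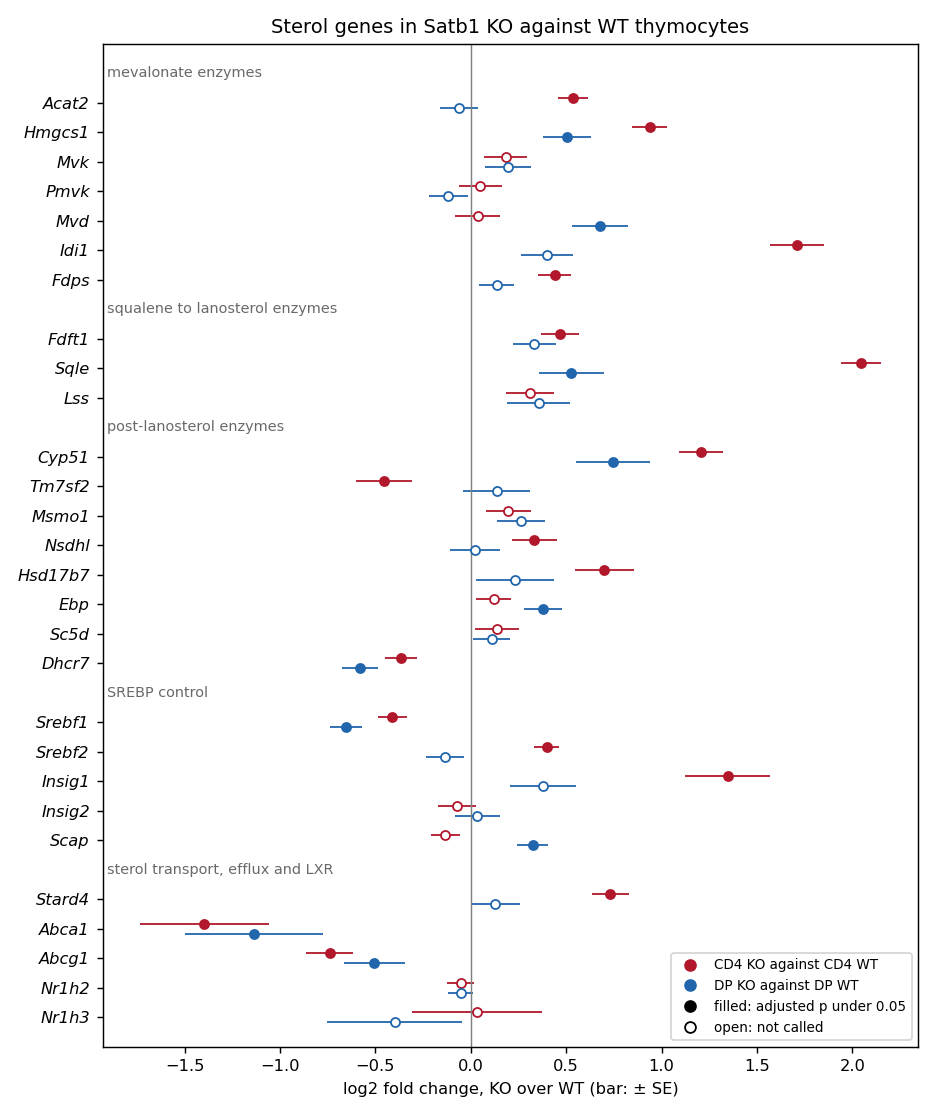
log2 fold change of each of the 28 genes, KO over WT, with bars of ± 1 SE, in CD4 (red) and DP (blue) thymocytes; filled points have an edgeR adjusted p under 0.05. Sqle, Idi1, Insig1 and Cyp51 lie farthest to the right in CD4, and Abca1 and Abcg1 lie left of 0 in both stages.

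**Figure D3:**
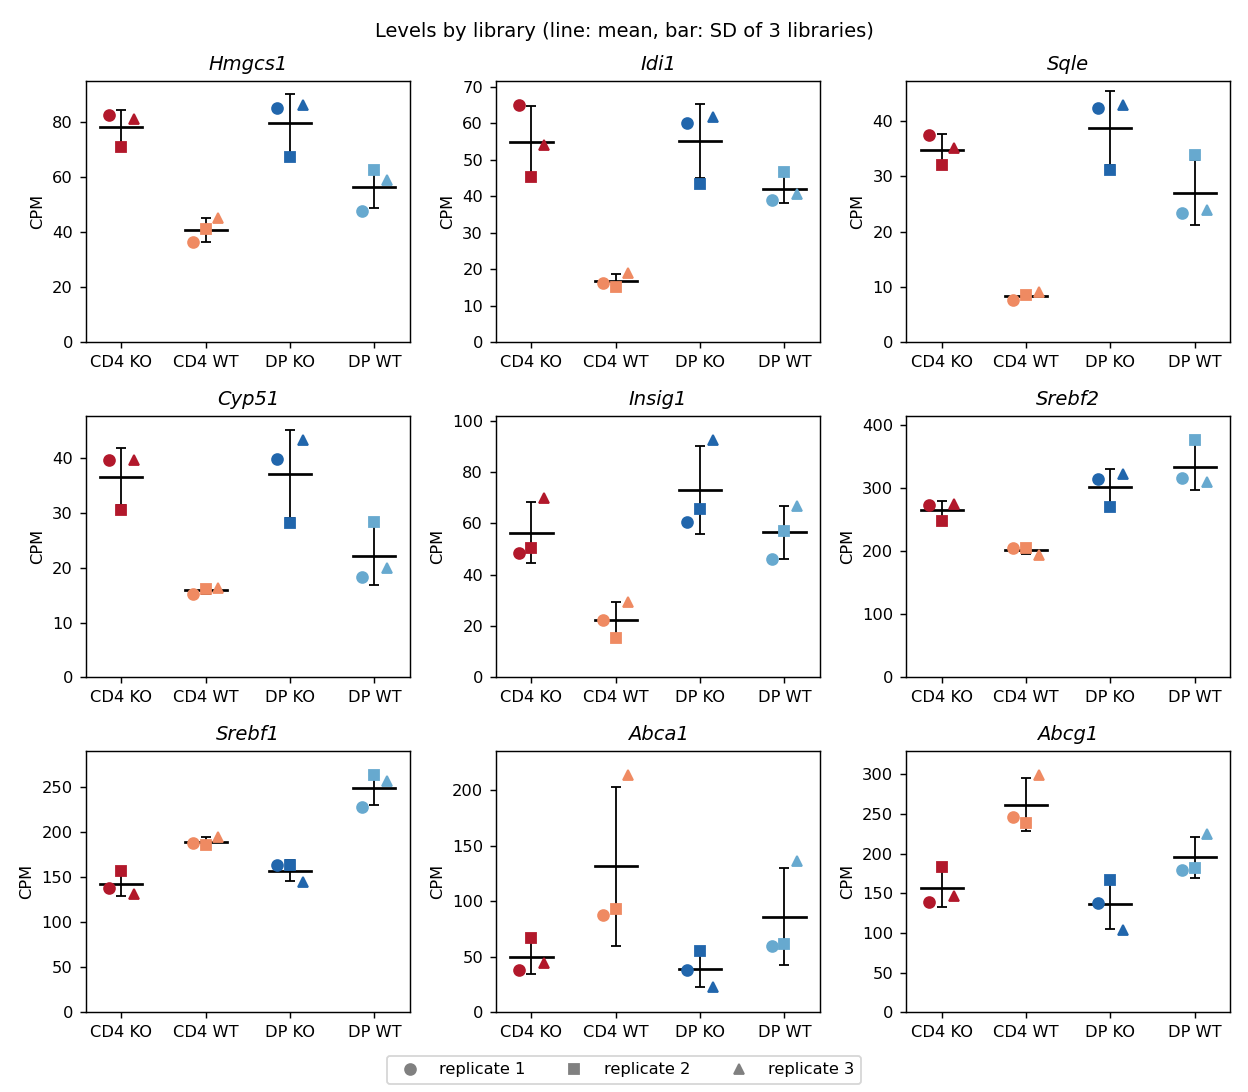
CPM of 9 members in each library of CD4 KO, CD4 WT, DP KO and DP WT, with the group mean as a line and its SD as a bar (n = 3). For Hmgcs1, Idi1, Sqle, Cyp51 and Insig1 the CD4 WT libraries lie below all libraries of the other 3 groups.

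Several other gene groups moved along with the sterol genes in CD4. All 24 cell cycle genes on the list rose in CD4 KO, where 20.9% of all genes tested rose and 18.6% fell. The 24 summed to 4216 to 5071 CPM in CD4 KO, against 1663 to 2247 CPM in CD4 WT. Of 8 DP stage genes, 6 rose and 1 fell, with sums of 2648 to 3234 CPM in CD4 KO and 1477 to 1915 CPM in CD4 WT. Of 8 mature CD4 genes, 0 rose and 5 fell, with sums of 1786 to 1937 CPM in CD4 KO and 3179 to 3336 CPM in CD4 WT. The 18 cholesterol enzymes summed to 477 to 552 CPM in CD4 KO, against 354 to 366 CPM in CD4 WT. The 6 B cell genes summed to 23.8 to 33.0 CPM in CD4 KO, against 7.07 to 19.3 CPM in CD4 WT. In these bulk libraries, more cells of a type and more RNA per cell cannot be told apart, and the part of cell cycle, stage or B cell content in the sterol result was not tested.

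**Figure D4:**
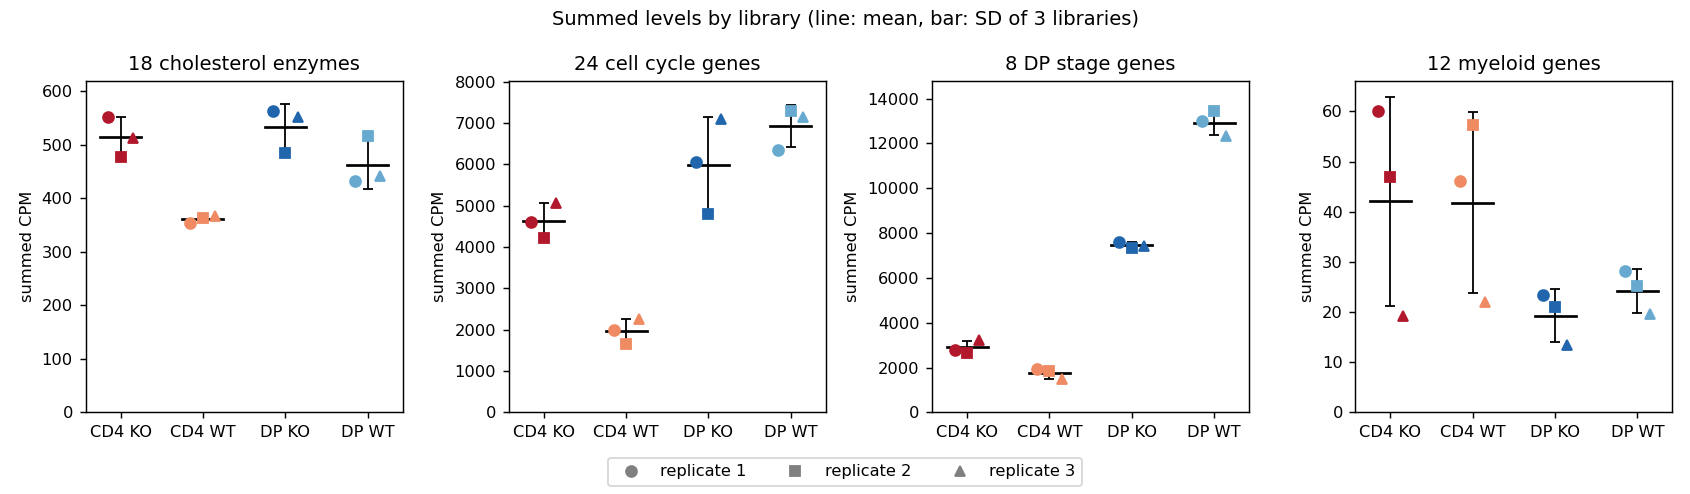
Summed CPM per library of the 18 cholesterol enzymes, 24 cell cycle genes, 8 DP stage genes and 12 myeloid genes in CD4 KO, CD4 WT, DP KO and DP WT, with means and SD (n = 3). The enzyme and cell cycle sums are lowest in CD4 WT, and the myeloid sums are at most 60.1 CPM.

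In DP thymocytes fewer members changed. Of the 28, 6 rose and 4 fell in DP KO against DP WT, 35.7% in all, where 30.8% of the 16776 genes tested were called (16.7% higher and 14.1% lower); this share is near the background. Hmgcs1, Mvd, Sqle, Cyp51, Ebp and Scap rose, and Dhcr7, Srebf1, Abca1 and Abcg1 fell. The median log2 fold change was 0.13 over the members and 0.01 over all genes tested.

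Mvd, the decarboxylase that yields isopentenyl diphosphate, was at 11.5, 10.7 and 9.05 CPM in DP KO, against 6.43, 7.30 and 5.89 CPM in DP WT, a 1.60-fold rise without overlap (log2 0.68 ± 0.15 SE, adjusted p = 0.0071). Hmgcs1 was at 84.9, 67.1 and 86.1 CPM in DP KO, against 47.7, 62.5 and 58.9 CPM in DP WT (log2 0.51 ± 0.13 SE, adjusted p = 0.014). Cyp51 was at 39.8, 28.1 and 43.4 CPM in DP KO, against 18.3, 28.3 and 20.0 CPM in DP WT (log2 0.75 ± 0.19 SE, adjusted p = 0.017). Its groups overlapped through DP KO replicate 2 and DP WT replicate 2.

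Sqle was at 42.3, 31.1 and 42.9 CPM in DP KO, against 23.4, 33.9 and 23.9 CPM in DP WT, and overlapped through the same libraries (log2 0.53 ± 0.17 SE, adjusted p = 0.041). With the replicate number as a block its adjusted p was 0.058. Idi1 was at 60.1, 43.5 and 61.7 CPM in DP KO, against 39.1, 46.5 and 40.7 CPM in DP WT, and did not pass the test (log2 0.40 ± 0.14 SE, adjusted p = 0.052). Ebp, the sterol isomerase gene on the X chromosome, was at 28.8, 31.0 and 30.6 CPM in DP KO, against 24.3, 25.4 and 20.2 CPM in DP WT (log2 0.38 ± 0.10 SE, adjusted p = 0.019).

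The other enzymes of DP cells were mostly not called. Fdft1 had a log2 fold change of 0.33 (adjusted p = 0.052), Lss 0.36, Msmo1 0.26, Hsd17b7 0.23 and Mvk 0.20. Fdps, Tm7sf2, Sc5d, Nsdhl, Acat2 and Pmvk lay between -0.12 and 0.14. Dhcr7 was the enzyme that fell, to 48.7, 47.8 and 40.0 CPM in DP KO, against 64.7, 70.7 and 70.6 CPM in DP WT (log2 -0.58 ± 0.09 SE, adjusted p = 0.0015).

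Srebf1 was at 164, 164 and 144 CPM in DP KO, against 228, 264 and 257 CPM in DP WT. It fell without overlap and had the smallest adjusted p among the members in DP (log2 -0.66 ± 0.08 SE, adjusted p = 0.00039). Srebf2 was at 314, 270 and 323 CPM in DP KO, against 316, 377 and 310 CPM in DP WT, and was not called (log2 -0.13 ± 0.10 SE). Scap rose, at 152, 160 and 133 CPM in DP KO, against 121, 121 and 115 CPM in DP WT (log2 0.32 ± 0.08 SE, adjusted p = 0.013).

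Insig1 was at 60.6, 65.7 and 92.7 CPM in DP KO, against 46.0, 57.0 and 66.8 CPM in DP WT. The groups overlapped and Insig1 was not called (log2 0.38 ± 0.17 SE, adjusted p = 0.13), but within each replicate number KO was above WT, and with the replicate block the adjusted p was 0.011. Insig2, at 22.4 to 25.9 CPM in DP KO and 20.6 to 27.4 CPM in DP WT, was not called (log2 0.03 ± 0.12 SE).

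Abca1 was at 38.1, 54.7 and 22.9 CPM in DP KO, against 60.0, 61.3 and 137 CPM in DP WT (log2 -1.14 ± 0.36 SE, adjusted p = 0.040; 0.065 with the replicate block). Abcg1 was at 138, 167 and 104 CPM in DP KO, against 179, 182 and 225 CPM in DP WT (log2 -0.51 ± 0.16 SE, adjusted p = 0.038). For both, every KO library was below every WT library. Stard4 was at 33.4, 27.4 and 36.9 CPM in DP KO, against 27.0, 29.6 and 33.5 CPM in DP WT, overlapped and was not called (log2 0.13 ± 0.13 SE). Nr1h2 (log2 -0.05 ± 0.07 SE) was not called. Nr1h3, at 0.788, 0.660 and 0.739 CPM in DP KO and 1.39, 0.839 and 0.624 CPM in DP WT, was not called (log2 -0.40 ± 0.35 SE).

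The DP calls were sensitive to single libraries. Of the 28 members, 3 rose without DP WT replicate 1, and 2 fell without DP KO replicate 1, DP KO replicate 3 or DP WT replicate 3. With replicate 3 as the lone DP WT library, 1 member rose (Ebp, log2 0.57, adjusted p = 0.041) and 3 fell, and over all genes 1089 were called higher, against 2805 with all 3 controls. The Sqle, Cyp51, Abca1 and Abcg1 calls were each lost on leaving out DP KO replicate 1 or DP WT replicate 3, where Abca1 had log2 -1.12 and -0.65. Beside this, 0 cell cycle genes rose and 5 of 24 fell in DP KO. That is 20.8% called, where 30.8% of all genes tested were called and 14.1% were lower. The 24 summed to 4789 to 7100 CPM in DP KO and 6337 to 7286 CPM in DP WT. The DP stage genes summed to 7353 to 7610 CPM in DP KO, against 12345 to 13438 CPM in DP WT, and the part of cell cycle or stage genes in the sterol result was not tested.

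The KO effects of the 2 stages were compared gene by gene in a model over all 12 libraries, where the effect in CD4 minus the effect in DP was tested directly. This difference is the same number as the CD4 to DP change in KO minus that in WT. Of the 28 members, 6 differed upward and 2 downward, 28.6%, where 27.8% of the 18431 genes tested were called (14.4% higher and 13.4% lower); this is the background share. The upward differences were in Sqle (log2 1.53 ± 0.22 SE, adjusted p = 0.00016), Idi1 (1.32 ± 0.21 SE, 0.00040), Insig1 (0.98 ± 0.32 SE, 0.037), Stard4 (0.61 ± 0.17 SE, 0.014), Acat2 (0.61 ± 0.12 SE, 0.0020) and Srebf2 (0.54 ± 0.12 SE, 0.0050). The downward ones were in Mvd (-0.63 ± 0.18 SE, 0.017) and Scap (-0.45 ± 0.11 SE, 0.0082).

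The size of the KO effect on Sqle, Idi1, Insig1, Stard4, Acat2 and Srebf2 was greater in CD4 than in DP cells. For Mvd and Scap the effect in CD4 was the lower. The Insig1 call was lost in 7 of the 12 leave-outs, namely DP KO replicates 1 and 2, DP WT replicates 2 and 3, CD4 KO replicate 3 and CD4 WT replicates 1 and 2. With replicate 3 as the lone DP WT library, 4 members differed upward and 3 downward: the Srebf2 (log2 0.44, adjusted p = 0.052) and Insig1 (log2 1.23, adjusted p = 0.053) calls were lost and Tm7sf2 was called lower (log2 -0.88, adjusted p = 0.043). For Hmgcs1 (0.44 ± 0.17 SE, adjusted p = 0.072) and Tm7sf2 (-0.58 ± 0.23 SE, 0.082) the call came with the replicate block, at adjusted p = 0.047 and 0.0195. Cyp51 (0.47 ± 0.25 SE, adjusted p = 0.19), Dhcr7 (0.23 ± 0.13 SE, 0.21), Srebf1 (0.25 ± 0.11 SE, 0.12), Abca1 (-0.25 ± 0.57 SE, 0.79) and Abcg1 (-0.22 ± 0.22 SE, 0.51) were not called, which does not show that their effects were equal.

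In WT, 8 of the 18 enzymes were lower in CD4 than in DP thymocytes, 2 were higher and 8 were not called. Of all 28 members, 4 were higher and 12 lower in CD4 WT against DP WT, 57.1% called in all, where 55.0% of the 17369 genes tested were called. The lower members made up 42.9%, where 27.1% of all genes tested were lower. The median log2 fold change was -0.27 over the members and 0.00 over all genes. In KO, 0 members were higher and 1 was lower in CD4 KO against DP KO, 3.57% called, where 21.7% of the 16910 genes tested were called (13.9% higher and 7.82% lower). This KO count depends on the fit: with the replicate number as a block 4 members were lower, and more of all genes were lower too. With DP WT replicate 3 as the lone DP WT library, the WT calls of Cyp51, Mvk, Pmvk, Fdps and Abcg1 were lost and Hsd17b7 was called lower. The median in KO was -0.03 over the members and 0.00 over all genes tested.

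The WT change was greatest in Sqle, which fell to 7.70, 8.57 and 9.12 CPM in CD4 WT, against 23.4, 33.9 and 23.9 CPM in DP WT (log2 -1.69 ± 0.16 SE, adjusted p = 8.0e-06). In KO, Sqle was at 37.5, 32.0 and 35.0 CPM in CD4 KO, against 42.3, 31.1 and 42.9 CPM in DP KO, and the groups overlapped (log2 -0.14 ± 0.13 SE, adjusted p = 0.53). Insig1 fell by 1.35 ± 0.21 SE on the log2 scale in WT (adjusted p = 0.00036) and had log2 -0.35 ± 0.19 SE in KO (adjusted p = 0.23; 0.00035 with the replicate block). Idi1 fell by 1.33 ± 0.11 SE in WT (adjusted p = 2.9e-06) and had log2 0.01 ± 0.17 SE in KO (adjusted p = 0.97).

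All but 1 of the 7 mevalonate enzymes were lower in CD4 WT than in DP WT: Acat2 (log2 -0.75), Hmgcs1 (-0.47), Mvk (-0.41), Pmvk (-0.40), Idi1 and Fdps (-0.46). Mvd was higher (log2 0.56, adjusted p = 0.0051). The Mvk call was lost without DP WT replicate 2 or CD4 WT replicate 2, and the Pmvk call without DP WT replicate 2 or CD4 WT replicate 1. In KO, Mvk, mevalonate kinase, was the member that passed the test, at 11.7, 10.6 and 10.9 CPM in CD4 KO, against 13.4, 14.9 and 16.0 CPM in DP KO (log2 -0.40 ± 0.11 SE, adjusted p = 0.033). That call was lost on leaving out any 1 of DP KO replicates 2 and 3 or CD4 KO replicates 1, 2 and 3.

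Cyp51 was lower in CD4 WT (log2 -0.49 ± 0.15 SE, adjusted p = 0.021), a call lost without DP WT replicate 2 (log2 -0.27) or CD4 WT replicate 1 or 2, and Tm7sf2 was higher (log2 0.54, adjusted p = 0.019; not called without DP WT replicate 1 or CD4 WT replicate 2). The other post-lanosterol enzymes were not called in WT, with log2 values between -0.42 for Hsd17b7 and 0.24 for Msmo1. In KO the 8 lay between -0.12 for Ebp and 0.20 for Msmo1. Fdft1 had log2 -0.26 in WT and -0.10 in KO, and Lss 0.08 in WT and 0.07 in KO.

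Srebf2 was at 205, 205 and 195 CPM in CD4 WT, against 316, 377 and 310 CPM in DP WT (log2 -0.73 ± 0.08 SE, adjusted p = 3.8e-05), and had log2 -0.17 ± 0.09 SE in KO (adjusted p = 0.22; 0.019 with the replicate block). Srebf1 was lower in CD4 WT (log2 -0.40 ± 0.07 SE, adjusted p = 0.00082) and had log2 -0.13 in KO. Scap was higher in CD4 WT (log2 0.31 ± 0.07 SE, adjusted p = 0.0034) and had log2 -0.12 in KO. Insig2 had log2 -0.18 in WT and -0.25 in KO (adjusted p = 0.086; 0.036 with the replicate block).

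Stard4 fell to 18.7, 20.0 and 19.8 CPM in CD4 WT, against 27.0, 29.6 and 33.5 CPM in DP WT (log2 -0.63 ± 0.10 SE, adjusted p = 0.00043), and had log2 0.01 in KO. Abcg1 was higher in CD4 WT (log2 0.42 ± 0.11 SE, adjusted p = 0.0089), and its log2 value in KO was 0.22. Abca1 was spread over 87.2 to 214 CPM in CD4 WT and 60.0 to 137 CPM in DP WT, with replicate 3 the highest in both groups (log2 0.61 ± 0.38 SE, adjusted p = 0.20; 2.9e-05 with the replicate block). In KO its log2 value was 0.39 ± 0.30 SE. Nr1h2 and Nr1h3 were called in neither genotype. The 24 cell cycle genes were all lower in CD4 WT than in DP WT, where 27.1% of all genes tested were lower. In CD4 KO against DP KO, 0 were higher and 6 lower (25%), where 7.82% of all genes tested were lower. The part of cell cycle genes in the sterol values was not tested.

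**Figure D5:**
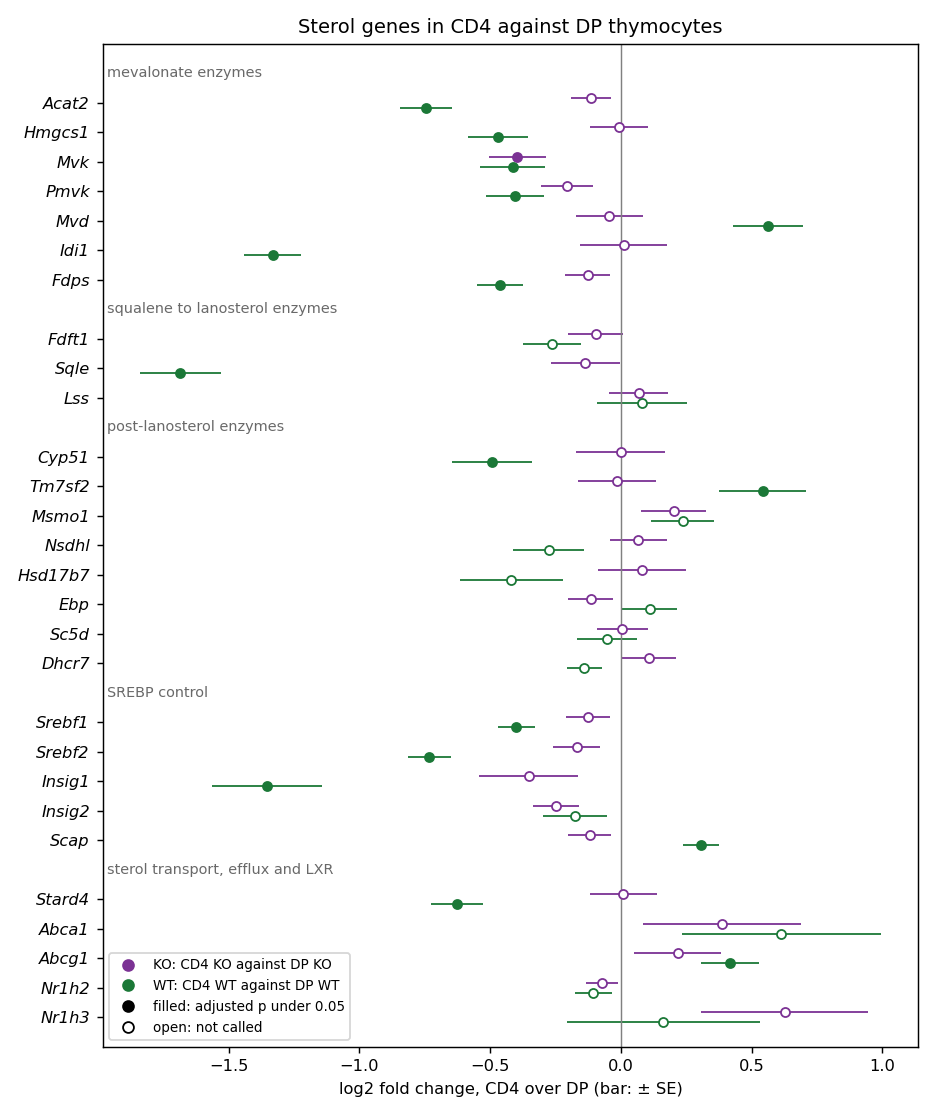
log2 fold change of each of the 28 genes, CD4 over DP, with bars of ± 1 SE, in KO (purple) and WT (green); filled points have an edgeR adjusted p under 0.05. Sqle, Insig1 and Idi1 lie beyond -1 in WT, while in KO Mvk is the filled point.

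Pathways next to cholesterol synthesis were read from lists of the same kind. Of 12 fatty acid synthesis genes, 5 rose and 1 fell among the 11 tested in CD4 KO, and 5 rose and 2 fell in DP KO. That is 54.5% and 58.3% called, where 39.5% of all genes tested were called in CD4 and 30.8% in DP. Fads2, a desaturase of polyunsaturated fatty acids, was at 51.8, 46.7 and 48.7 CPM in CD4 KO, against 8.03, 6.33 and 7.34 CPM in CD4 WT (log2 2.76 ± 0.11 SE, adjusted p = 5.7e-07), a larger log2 change than that of any of the 28 members. Acaca, the carboxylase that commits carbon to fatty acids, rose in both stages (log2 1.42 in CD4 KO and 0.67 in DP KO), as did Fads1 in CD4 KO (log2 1.07). Elovl5, an elongase, rose in DP KO (log2 1.12, adjusted p = 2.0e-06), where Acss2, which activates acetate, fell (log2 -0.70).

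Of 13 genes of SREBP processing and degradation, 3 rose and 4 fell in CD4 KO, and 0 rose and 2 fell in DP KO. The share called was 53.8% in CD4, above the 39.5% of all genes, and 15.4% in DP, below the 30.8% of all genes. Mbtps1, the protease that makes the opening cut in SREBP, was at 237, 245 and 231 CPM in DP KO, against 403, 411 and 414 CPM in DP WT (log2 -0.77 ± 0.06 SE, adjusted p = 2.3e-05). Rnf145, a ubiquitin ligase, fell in both stages (log2 -0.44 in CD4 KO and -0.26 in DP KO). Fbxw7, the subunit of a ligase that marks nuclear SREBP for decay, rose in CD4 KO (log2 0.55), and Syvn1, a ligase of the endoplasmic reticulum, fell there (log2 -0.36).

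Of 15 genes of sterol storage and lysosomal export, 4 rose and 5 fell in CD4 KO, and 2 rose and 3 fell in DP KO. The 9 called in CD4 of 15 compare with 39.5% of all genes, and the 33.3% called in DP are near the 30.8% of all genes. Gramd1a, which encodes a carrier of sterol out of the plasma membrane, was at 279, 234 and 137 CPM in CD4 KO, against 928, 872 and 863 CPM in CD4 WT (log2 -2.03 ± 0.21 SE, adjusted p = 7.5e-05). In DP KO it was at 28.4, 48.0 and 12.3 CPM, against 445, 420 and 374 CPM in DP WT (log2 -3.79 ± 0.40 SE, adjusted p = 0.00011). Npc2, which hands cholesterol over in the lysosome, fell in CD4 KO (log2 -0.93), as did the late endosomal carrier Stard3 (-0.68). In DP KO the phospholipid remodelling enzyme Lpcat3 (log2 0.68) and the cholesterol esterifying enzyme Soat2 (log2 1.78, at 1.38 to 1.96 CPM in DP KO and 0.357 to 0.570 CPM in DP WT) rose.

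Of 16 genes of the isoprenoid branch, which takes farnesyl diphosphate to prenylated proteins, dolichol and coenzyme Q, 1 rose and 3 fell in CD4 KO, and 2 rose and 0 fell in DP KO. With 4 of 16 called in CD4 and 12.5% in DP, the list was below the 39.5% and 30.8% of all genes. Those that fell in CD4 KO were Fntb, a farnesyltransferase subunit (log2 -0.71), Rabggta, a subunit of the enzyme that prenylates Rab proteins (-0.41), and Srd5a3, a reductase of dolichol synthesis (-0.40). Those that rose in DP KO were Coq2, a coenzyme Q enzyme (log2 0.67), and Nus1, a subunit of the dolichol-making prenyltransferase (0.41).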

How the data were processed

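Poly(A) RNA-seq of 12 libraries was deposited by the authors as raw counts per gene in 2 tables, 1 for DP and 1 for CD4 thymocytes, with no normalization. Per the labels' protocols, RNA was taken from sorted cells with TRIzol and sequenced in paired ends after poly(A) selection. Per the submitters' processing notes, the build was mm10, and Subread 1.0.1, DESeq2 and R 4.1.5 were used in roles not stated there. The aligner, strand setting and multimapping rule were not given in the sources used here. For levels per kilobase, the authors' deposited gene length column (summed exon bases) was used.

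Counts were scaled by TMM, filtered with filterByExpr and tested gene by gene with edgeR 4.0.16 (R 4.3.3; glmQLFit and glmQLFTest) within the groups compared, and in 1 model over all 12 libraries for the difference between stages. P-values were adjusted by Benjamini-Hochberg over all genes tested, and genes under 0.05 were called. The SE is the size of the log2 fold change over the square root of the F statistic. Levels are CPM with TMM over all 12 libraries. Python 3.11.15 and matplotlib 3.10.9 drew the figures. The test was tried on simulated data with known changes before use.

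Each result was recomputed with limma-voom (limma 3.58.1), with the Wald test of DESeq2 1.42.0, with size factors from DESeq2 in edgeR, with no filter on low counts, with a mean count of at least 10, with the replicate block, in 1 model over all libraries, with each library left out, and with DP WT replicate 3 as the lone DP WT library. In the labels the batch and replicate numbers are the same, so a pairing of libraries by number was looked at. Same-numbered libraries correlated at 0.116 to 0.343 between CD4 KO and CD4 WT, 0.230 to 0.486 between CD4 KO and DP KO, 0.147 to 0.265 between CD4 WT and DP WT, and -0.00179 to 0.176 between DP KO and DP WT, as deviations from group means. Libraries of different numbers correlated at -0.250 to 0.178, -0.431 to 0.214, -0.229 to 0.0563 and -0.130 to 0.150 in the same order. The ranges of same and different numbers overlapped between KO and WT in both stages. They lay apart between the stages in both genotypes. The fits reported are without the block, so the comparisons between stages take same-numbered libraries as independent. No pair of replicates matched within sampling noise (over 12 pairs, chi-square divided by its degrees of freedom was 13.8 to 45.8).

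The members and lists were chosen with earlier results of these data known. All 28 members are named. Of each neighbouring pathway list, up to 3 genes with the smallest adjusted p per KO comparison are named. Some genes of the pathway are not reported here.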

Additional observations from a re-analysis of the deposited data

Results flagged for a closer look

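The KO effect differed between the stages by a direct test for 8 members. That is 28.6% of the 28, where 27.8% of the 18431 genes tested were called, so the count is at the background share. The effect in CD4 minus the effect in DP, on the log2 scale, was 1.53 for Sqle, 1.32 for Idi1, 0.98 for Insig1, 0.61 for Stard4, 0.61 for Acat2 and 0.54 for Srebf2, so the KO effect was the higher in CD4. It was -0.63 for Mvd and -0.45 for Scap, so the KO effect was the lower in CD4. The edgeR adjusted p-values lay between 0.00016 for Sqle and 0.037 for Insig1. With replicate 3 as the lone DP WT library the Insig1 and Srebf2 calls were lost, at adjusted p = 0.053 and 0.052. Beside these, all 24 cell cycle genes differed in the same test, upward, and their part in the sterol values was not tested. With 3 libraries per group, single libraries far from their group could not be tested.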

How the results depend on the processing

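No member reversed its direction past the threshold under any alternative run. Without a filter on low counts, 10 members rose in DP KO (main value 6), and 1 was higher and 2 lower in CD4 KO against DP KO (main 0 and 1). The median log2 value of all genes then shifted to -0.58 in DP and 0.08 between the KO stages, so such values are relative to that shift. With DP WT replicate 3 as the lone DP WT library, 1 member rose in DP KO. Between CD4 KO and DP KO, 2 members were lower by the DESeq2 Wald test and 4 with the replicate block; over all genes the block gave 2976 lower and the main fit 1323. The block changed no call among the members other than those given above. On leaving out each library in turn, members called higher and lower numbered 11 to 13 and 4 to 5 in CD4 KO, 3 to 7 and 2 to 4 in DP KO, 5 to 7 and 2 to 3 for the difference between stages, 3 to 5 and 9 to 13 in CD4 WT against DP WT, and 0 and 0 to 1 in CD4 KO against DP KO. Of the single-gene values, 352 of 364 kept their side of the threshold in CD4 KO, 352 of 392 in DP KO, 514 of 532 for the difference, 370 of 392 in CD4 WT against DP WT and 352 of 364 in CD4 KO against DP KO. The causes were not tested. Depth limits Nr1h3 most, at 0.624 CPM in its lowest library, where 3 counts are worth up to 0.134 CPM; such floors cover counting error only.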
